A study of Mus musculus with 6 samples.

Results

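The prostanoid receptors and the cyclooxygenases make up a set of 10 genes, 8 receptor genes and 2 enzyme genes, which were picked by name and matched by Ensembl identifier to 10 of the 47937 rows of the deposited read count table. The receptor genes are Ptgdr, Ptger1, Ptger2, Ptger3, Ptger4, Ptgir, Ptgfr and Tbxa2r, and the enzyme genes are Ptgs1 and Ptgs2. RNA was sequenced from cervical, thoracic and lumbar dorsal root ganglia (DRGs), which hold the cell bodies of the sensory neurons of the trunk and limbs. The control group was 3 libraries of C57BL/6 mice labelled wild type, and the Tlx3cko group was 3 libraries of C57BL/6 mice labelled Tlx3f/f;SNS-cre, with an age of about 2 months in both. In Tlx3cko mice both floxed copies of Tlx3, a homeobox transcription factor gene, are removed by Cre under the Nav1.8 (SNS) promoter. This promoter is active in most nociceptors from late embryonic life, so that DRG neurons without it and all glia keep the gene. The comparison asks how the DRG transcriptome differs when nociceptors mature without Tlx3.

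Prostanoids are lipid mediators made from arachidonic acid. The cyclooxygenases Ptgs1 (COX-1, present in many resting tissues) and Ptgs2 (COX-2, induced in inflammation) turn arachidonic acid into an unstable intermediate, and terminal synthases turn this into prostaglandins D, E, F and I or thromboxane. Each product acts on G protein-coupled receptors of its own, and in sensory neurons prostaglandins E and I are best known for lowering the threshold of nociceptors to heat and mechanical stimuli, which is the basis of pain relief by cyclooxygenase inhibitors.

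All 10 genes reached the minimum of 10 counts summed over the 6 libraries that was set for testing. In Tlx3cko DRGs Ptgdr and Ptger3 were lower and Ptger1 was higher past an adjusted p of 0.05, and 7 of the 10 did not pass. Here and below the edgeR adjusted p is that of the quasi-likelihood test of edgeR, with Benjamini-Hochberg adjustment over all 20006 genes tested. Ptgdr, the prostaglandin D receptor gene, kept 36.4% of its control level, Ptger3 kept 67.7%, and Ptger1 stood at 129.4%. Over all genes tested, 4.25% passed in either direction, 2.56% lower and 1.69% higher. For 4 of the 10 genes (Ptgdr, Ptger1, Ptger2 and Ptger3) all values of one group lay on one side of all values of the other, which was also true of 19.7% of all genes tested. The median log2 fold change of the 10 was 0.01, beside -0.0036 over all genes tested.

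The sequences just upstream of 3 receptor genes are shown because 2 of these genes passed the test as lower in Tlx3cko DRGs and the remaining one, Ptger2, is the neighbour of Ptgdr on chromosome 14. They are the 250 bases before the RefSeq start site on GRCm38.p6, at chr14:44859376-44859625 on the minus strand for Ptgdr, chr14:44987861-44988110 on the plus strand for Ptger2 and chr3:157566626-157566875 on the plus strand for Ptger3. Each is written 5′ to 3′ along its gene, in lower case, with GC boxes (GGGCGG on either strand) in capitals.
Ptgdr: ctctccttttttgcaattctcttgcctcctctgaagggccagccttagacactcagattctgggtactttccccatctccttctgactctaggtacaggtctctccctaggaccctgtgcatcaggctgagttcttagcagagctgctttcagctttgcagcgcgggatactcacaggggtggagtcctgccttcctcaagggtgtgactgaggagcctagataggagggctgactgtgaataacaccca
Ptger2: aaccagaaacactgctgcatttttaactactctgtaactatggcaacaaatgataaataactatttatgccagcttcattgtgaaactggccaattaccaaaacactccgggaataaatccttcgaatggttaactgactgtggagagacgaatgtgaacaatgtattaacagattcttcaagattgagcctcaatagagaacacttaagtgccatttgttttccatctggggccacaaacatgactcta
Ptger3: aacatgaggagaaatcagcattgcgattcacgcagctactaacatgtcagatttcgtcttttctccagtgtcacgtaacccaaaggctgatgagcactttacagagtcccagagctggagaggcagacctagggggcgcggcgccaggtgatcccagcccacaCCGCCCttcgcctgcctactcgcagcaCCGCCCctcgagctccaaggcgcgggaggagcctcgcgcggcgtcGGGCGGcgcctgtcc
The upstream sequence of Ptger3 held 3 GC boxes and 21 CpG dinucleotides at 62.0% G and C. That of Ptgdr held 0 GC boxes and 2 CpG dinucleotides at 53.2% G and C, and that of Ptger2 held 0 and 3 at 38.0%, beside a median of 52.4% over all windows. Windows were given for 9 of the 10 genes, and Tbxa2r had 2, which makes 10 windows. Of these, 5 held a GC box (Ptger3, Ptger4, Ptgfr, Ptgir and Ptgs2), beside 32.7% of 32851 windows of all genes. The homeodomain core TAATTA was in 1 of the 10 windows, that of Ptgs1, and in 4.84% of all windows. The E-box CACGTG (6.02% of all windows), TATAAA (12.4%) and the cAMP response element TGACGTCA (1.55%) were in none of the 10, with both strands searched. A match of this kind describes the letters of the window and nothing about binding.

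The libraries held between 11458299 and 18775628 counts, and values below are normalized counts, that is, counts scaled by edgeR's TMM factors to the mean effective library size of 14970767. For Tlx3 itself the controls gave 1828, 2262 and 2433 counts and the Tlx3cko libraries 1717, 1052 and 1475, each in the order of replicates 1, 2 and 3. Its Tlx3cko mean was 72.7% of the control mean, with no overlap (log2 fold change -0.46, edgeR adjusted p = 0.0122). Tlx3 passed in 3 of the 6 fits with 1 library left out (highest edgeR adjusted p 0.091). The sexes of the libraries were unequal. Xist counts and Y-linked counts marked control replicates 1 and 2 as female. They marked control replicate 3 and the 3 Tlx3cko libraries as male. With sex as a term, the genotype difference therefore rests on control replicate 3 against the 3 Tlx3cko libraries. A fit against that control library alone gives nearly the same fold for this reason and is not a separate check. Tlx3 itself had a log2 fold change of -0.38 with sex as a term and did not pass (edgeR adjusted p = 0.223). An exact two-sided permutation test over libraries, 3 against 3, has 0.1 as its smallest p, so that the p-values come from the model across all genes. In bulk tissue, fewer cells of a type and less RNA per cell cannot be told apart.

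Ptgdr (ENSMUSG00000071489, minus strand of chromosome 14, 44851235 to 44859375) encodes DP1, a receptor for prostaglandin D that raises cAMP through Gs. It had 391.8, 615.4 and 570.3 normalized counts in control replicates 1, 2 and 3, and 173.2, 185.0 and 216.5 in Tlx3cko replicates 1, 2 and 3. The lowest control library, replicate 1, was thus still well above the highest Tlx3cko library, and the spread was wider among the controls. The means were 525.8 ± 118.2 in control and 191.6 ± 22.4 in Tlx3cko DRGs (SD, n = 3 each). Ptgdr fell by 1.46 on the log2 scale (standard error, SE, 0.17, 95% interval -1.82 to -1.09, edgeR adjusted p = 0.000203). It passed in all 6 fits that each left out 1 library, in which the log2 fold change ranged from -1.63 to -1.33. With sex as a term beside genotype the log2 fold change was -1.57 (edgeR adjusted p = 0.00222). It was -1.57 against the male control library alone too, the library on which both estimates rest.

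**Figure D1:**
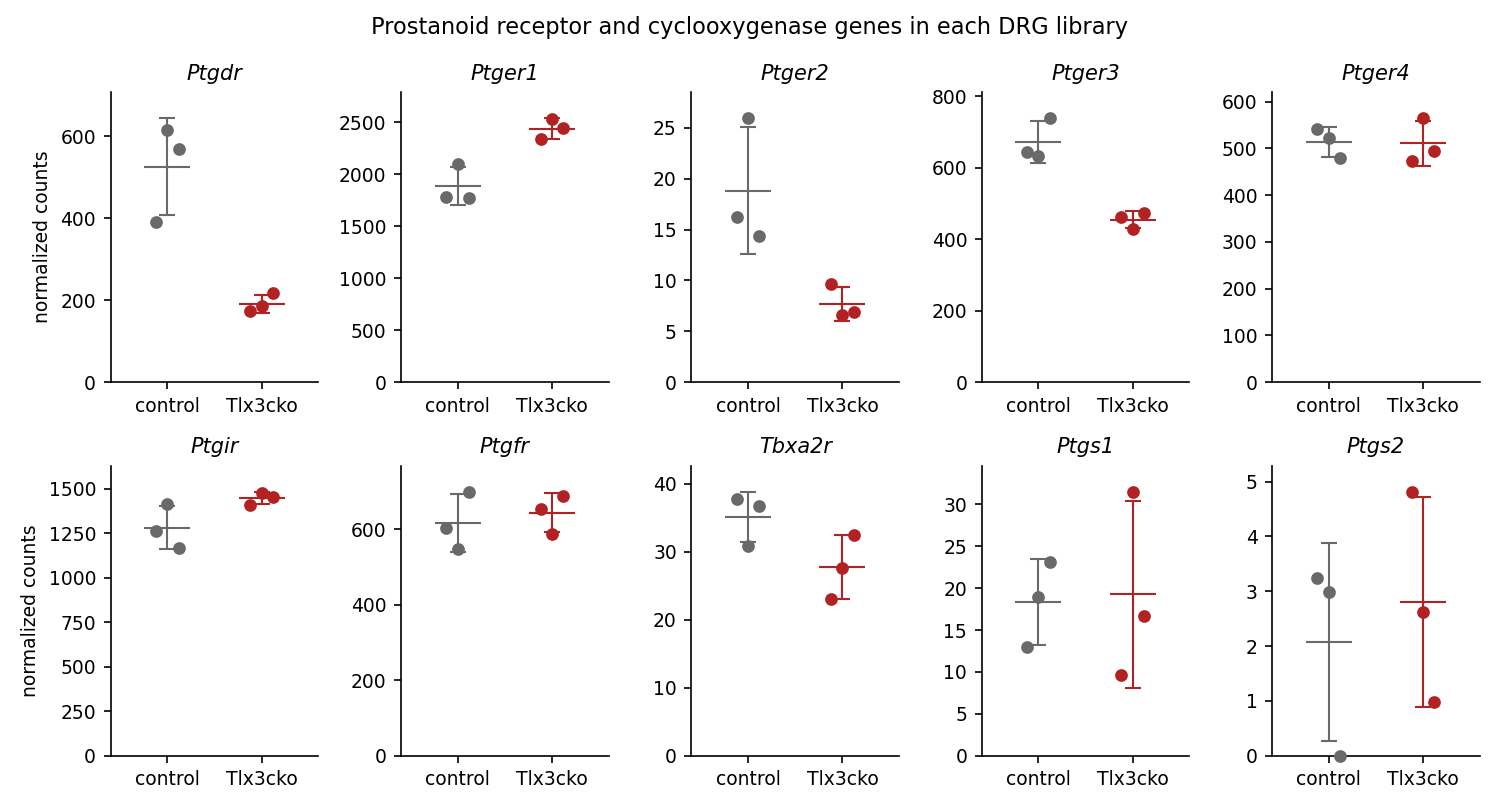
Normalized counts (vertical axes from 0, on a scale of their own for each gene) of the 10 genes in the 3 control libraries (grey) and the 3 Tlx3cko libraries (red), with points for libraries, long bars for means and whiskers for 1 SD. The groups are apart for Ptgdr, Ptger1, Ptger2 and Ptger3 and overlap for the other 6 genes, and Ptgs2 lies under 5 normalized counts in each library.

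Of the 4 receptor genes for prostaglandin E, Ptger3 was lower, Ptger1 was higher, and Ptger2 and Ptger4 did not pass. Ptger1 encodes EP1, which raises intracellular calcium, Ptger2 and Ptger4 encode EP2 and EP4, which raise cAMP through Gs, and Ptger3 encodes EP3, which mainly lowers cAMP through Gi.

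Ptger3 (ENSMUSG00000040016, plus strand of chromosome 3, 157566892 to 157645888) had 645.5, 633.3 and 738.7 normalized counts in control replicates 1, 2 and 3. In Tlx3cko replicates 1, 2 and 3 it had 463.9, 429.1 and 473.4. The 3 Tlx3cko libraries lay close together, and each was below each control. The means were 672.5 ± 57.6 and 455.5 ± 23.3 (SD, n = 3 each), and Ptger3 fell by 0.56 on the log2 scale (SE 0.11, 95% interval -0.79 to -0.33, edgeR adjusted p = 0.00776). Without Tlx3cko replicate 2 the edgeR adjusted p was 0.0564, and the other 5 fits with 1 library left out passed. With sex as a term the log2 fold change was -0.70 (edgeR adjusted p = 0.0182), and 0% of its exonic bases lay under another gene.

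Ptger1 (ENSMUSG00000019464, plus strand of chromosome 8, 83666678 to 83672753) had 1785, 2097 and 1777 normalized counts in control replicates 1, 2 and 3, and 2339, 2535 and 2449 in Tlx3cko replicates 1, 2 and 3. Each Tlx3cko library was above each control library, with a smaller step than for Ptgdr. The means were 1887 ± 183 and 2441 ± 98.5 (SD, n = 3 each), and the log2 fold change was 0.37 (SE 0.09, 95% interval 0.19 to 0.56, edgeR adjusted p = 0.0262). Of the 6 fits with 1 library left out, the call was lost in 4, those without replicate 1 or 3 of the controls and those without replicate 2 or 3 of the Tlx3cko group (highest edgeR adjusted p 0.12). It was also lost with sex as a term (edgeR adjusted p = 0.0887). In addition, 71.0% of the exonic bases of Ptger1 are annotated on the other strand too. The counting step is not given in the sources used here, so that it is unknown whether strand was used, and without strand the reads of shared bases cannot be told apart.

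Ptger2 (ENSMUSG00000037759, plus strand of chromosome 14, 44988195 to 45003820) was scarce. Its counts were 15, 26 and 18 over control replicates 1, 2 and 3, and 10, 5 and 7 over Tlx3cko replicates 1, 2 and 3. Each Tlx3cko count was below each control count, but at this depth the log2 fold change of -1.26 had an SE of 0.52 and a 95% interval from -2.39 to -0.14, and the edgeR adjusted p was 0.27. The summed counts were 59 in control libraries (95% exact Poisson interval 44.9 to 76.1) and 22 in Tlx3cko libraries (13.8 to 33.3), intervals that cover counting error only.

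Ptger4 (ENSMUSG00000039942, minus strand of chromosome 15, 5206661 to 5244187) had 541.8, 522.6 and 478.6 normalized counts in control replicates 1, 2 and 3, and 473.5, 564.2 and 494.0 in Tlx3cko replicates 1, 2 and 3. The groups overlapped throughout. The log2 fold change was -0.01 with a 95% interval from -0.25 to 0.23, which is a ratio between 0.84 and 1.17 (edgeR adjusted p = 0.981).

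**Figure D2:**
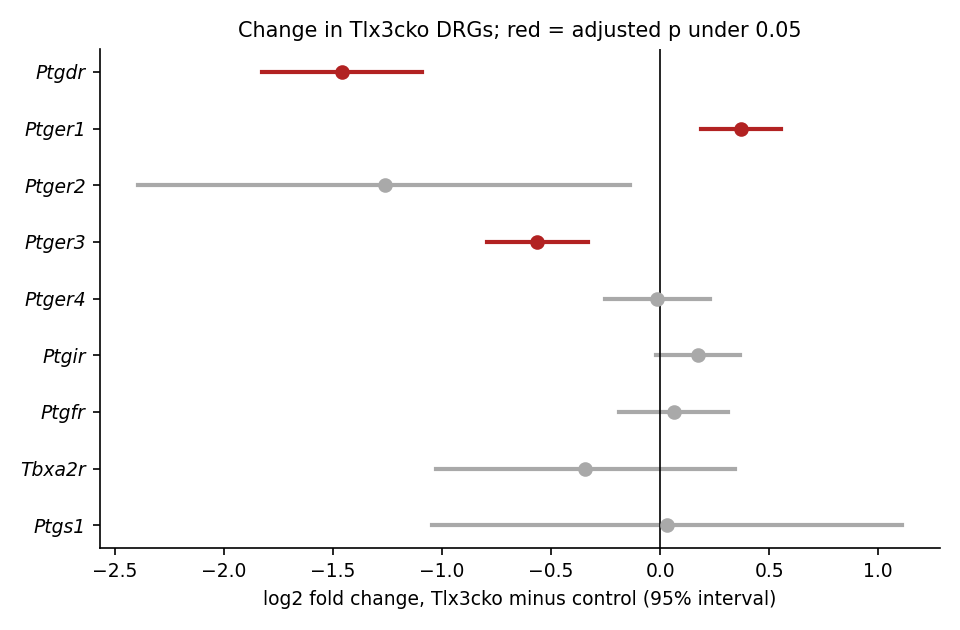
Log2 fold change of Tlx3cko minus control (horizontal axis) for 9 of the 10 genes, with points for the estimates and bars for their 95% intervals; red marks an edgeR adjusted p under 0.05. Ptgdr at -1.46 and Ptger3 at -0.56 lie left of 0 and Ptger1 at 0.37 lies right of it, and Ptgs2 is left out because its counts were too few for a fold.

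Ptgir (ENSMUSG00000043017, plus strand of chromosome 7, 16906490 to 16910905) encodes the prostacyclin receptor IP, which raises cAMP. Its normalized counts were 1262, 1411 and 1169 in control replicates 1, 2 and 3, and 1407, 1476 and 1455 in Tlx3cko replicates 1, 2 and 3. Control replicate 2 lay just above Tlx3cko replicate 1, so that the groups overlapped. The log2 fold change was 0.18 (SE 0.09, 95% interval -0.02 to 0.37, edgeR adjusted p = 0.405).

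Ptgfr (ENSMUSG00000028036, minus strand of chromosome 3, 151796502 to 151837630) encodes FP, the receptor for prostaglandin F. It had 604.4, 547.5 and 699.6 normalized counts in control replicates 1, 2 and 3, and 654.5, 589.2 and 689.9 in Tlx3cko replicates 1, 2 and 3. The highest value of all was a control, and the groups overlapped. Its log2 fold change of 0.06 had a 95% interval from -0.19 to 0.31 (edgeR adjusted p = 0.884).

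Tbxa2r (ENSMUSG00000034881, plus strand of chromosome 10, 81328731 to 81335172), the thromboxane receptor gene, gave 35, 31 and 46 counts over control replicates 1, 2 and 3, and 24, 21 and 33 over Tlx3cko replicates 1, 2 and 3. After normalization Tlx3cko replicate 3 at 32.5 lay above control replicate 2 at 30.9. The log2 fold change was -0.34 with an SE of 0.32 (edgeR adjusted p = 0.718), so that no difference was detectable at this depth.

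Both cyclooxygenase genes were close to the floor of detection. Ptgs1 (ENSMUSG00000047250, plus strand of chromosome 2, 36230426 to 36252272) gave 12, 19 and 29 counts over control replicates 1, 2 and 3, and 10, 24 and 17 over Tlx3cko replicates 1, 2 and 3. The groups overlapped, and the log2 fold change of 0.03 had a 95% interval from -1.04 to 1.11 (edgeR adjusted p = 0.987), which is wide enough to hold a doubling. Ptgs2 (ENSMUSG00000032487, plus strand of chromosome 1, 150100031 to 150108227) gave 3, 3 and 0 counts over control replicates 1, 2 and 3, and 5, 2 and 1 over Tlx3cko replicates 1, 2 and 3. It summed to 6 of 47543979 control counts (95% exact Poisson interval 2.20 to 13.1) and 8 of 42297468 Tlx3cko counts (3.45 to 15.8). Of the 6 libraries, 5 were at or under 3 counts, so that no fold is given for Ptgs2.

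Levels were compared between genes on the RPKM scale, that is, counts per kilobase of exon scaled to the library size, over all exonic bases of a gene unless said otherwise. The place of Ptger1 depends on the length used. On all of its 5459 exonic bases it was at 23.1 ± 2.23 (SD, n = 3) in control DRGs, close to Ptgir, whereas on the 1583 bases that it does not share with the other strand the same counts gave 79.6 in control and 103.0 in Tlx3cko DRGs, above Ptgir at 25.7 and 29.0. The first value holds if reads on shared bases were counted and the second if they were not, and which applies is unknown. On all exonic bases, Ptgir (25.7 ± 2.45, SD, n = 3) and Ptger1 (23.1 ± 2.23) stood highest in control DRGs, followed by Ptgdr (11.0 ± 2.48), Ptger3 (7.90 ± 0.68), Ptgfr (6.08 ± 0.76) and Ptger4 (5.17 ± 0.33). Below these came Tbxa2r (1.22 ± 0.13), Ptgs1 (0.316 ± 0.088), Ptger2 (0.242 ± 0.080) and Ptgs2 (0.030 ± 0.026). In this order the ranges over the 3 control libraries overlapped between Ptgir and Ptger1, between Ptgdr and Ptger3, between Ptgfr and Ptger4, and between Ptgs1 and Ptger2, so that these neighbours were not apart. In Tlx3cko DRGs Ptgdr was at 4.02 ± 0.47 and passed from rank 3 to rank 6 of the 10, below Ptger3 at 5.35 ± 0.27, Ptgfr at 6.35 ± 0.50 and Ptger4 at 5.13 ± 0.48. The Tlx3cko range of Ptgdr, from 3.63 to 4.54, lay wholly below that of each of these 3 genes on all exonic bases. On unshared bases Ptgdr was at 5.16, close to Ptger3 at 5.35. Ptger1 was at 29.9 ± 1.21 beside Ptgir at 29.0 ± 0.71, with overlapping ranges.

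The level summed over the 8 receptor genes was between 75.8 and 86.3 in control and between 78.0 and 82.2 in Tlx3cko libraries, and these ranges overlapped. On unshared bases the sum was between 133.0 and 154.1 in control and between 150.4 and 160.5 in Tlx3cko libraries, also with overlap. Without Ptger1, and on all exonic bases, it was between 54.0 and 60.7 in control and between 49.4 and 52.2 in Tlx3cko libraries, with no overlap. Within the sum of all 8 Ptgdr took 10.8%, 14.9% and 15.1% in control replicates 1, 2 and 3, and 4.65%, 4.73% and 5.52% in Tlx3cko replicates 1, 2 and 3. Ptger3 took between 8.62% and 11.0% in control and between 6.14% and 6.98% in Tlx3cko libraries. On unshared bases Ptgdr took between 7.92% and 11.2% in control and between 3.10% and 3.68% in Tlx3cko libraries. With Ptger1 left out because of its shared bases, Ptgdr took between 15.2% and 21.3% of the remaining sum in control and between 7.35% and 8.69% in Tlx3cko libraries. Shares of a sum are not independent, since a lower share of one gene raises the others.

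**Figure D3:**
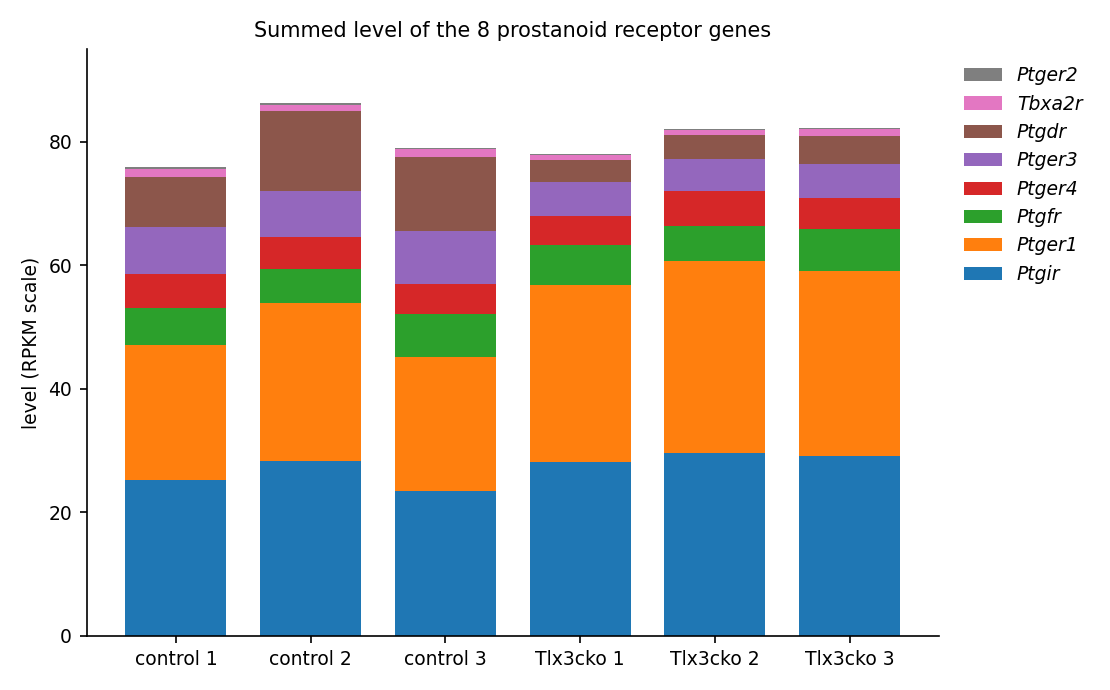
Level of the 8 receptor genes, on the RPKM scale (vertical axis from 0), over all exonic bases, stacked for each of the 3 control and 3 Tlx3cko libraries. The bar heights overlap between the groups (75.8 to 86.3 and 78.0 to 82.2), while the Ptgdr segment is thinner in each Tlx3cko bar than in each control bar.

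The genes next to Ptgdr and Ptger2 were examined after their values had been seen. Ptgdr and Ptger2 are neighbours on chromosome 14, with 128820 bases between them. Gm16976, a transcribed pseudogene on the plus strand, 44858671 to 44974944, covers 22.1% of the exonic bases of Ptgdr. Its normalized counts were between 519.2 and 606.2 in control and between 183.8 and 205.7 in Tlx3cko libraries (log2 fold change -1.50, SE 0.12, edgeR adjusted p = 1.3e-05). Gm17173, a transcript antisense to Ptger2 on the minus strand, 44972268 to 45006900, had between 56.6 and 72.8 normalized counts in control and between 11.8 and 30.2 in Tlx3cko libraries (log2 fold change -1.88, SE 0.37, edgeR adjusted p = 0.0102). This call was lost without control replicate 2 or Tlx3cko replicate 3, with a highest edgeR adjusted p of 0.0537. It was lost more clearly with sex as a term (edgeR adjusted p = 0.126), where the fold rests on the male control library. All 4 genes tested in this interval thus had a negative log2 fold change and no overlap between the groups, beside 19.7% of all genes tested with no overlap. By genotype alone 3 of the 4 passed the test, beside 4.25% of all genes tested. Each of the 4 overlaps another of them in position, so that without strand they are not 4 separate observations. Ptgdr and Gm16976 also passed with sex as a term. Txndc16, the next gene tested, had a log2 fold change of 0.34 and did not pass (edgeR adjusted p = 0.151).

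Genes on the other strand also cover 16.5% of the exonic bases of Ptger4, 4.85% of Ptgfr and 3.81% of Ptgs1, and of these Ttc33, Gm43618 and Gm43621 were tested and did not pass. Because reads of overlapping genes cannot be told apart without strand, 2 pairs were also summed before the test. Ptgdr with Gm16976 had a log2 fold change of -1.48 (SE 0.12, edgeR adjusted p = 1.3e-05), close to that of Ptgdr alone. The ratio of Ptgdr to Gm16976 counts was between 0.755 and 1.15 in control and between 0.928 and 1.05 in Tlx3cko libraries. Ptger2 with Gm17173, which share 4.74% of the exonic bases of Ptger2, had a log2 fold change of -1.72 (SE 0.30, edgeR adjusted p = 0.00495), and more of that sum comes from Gm17173.

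**Figure D4:**
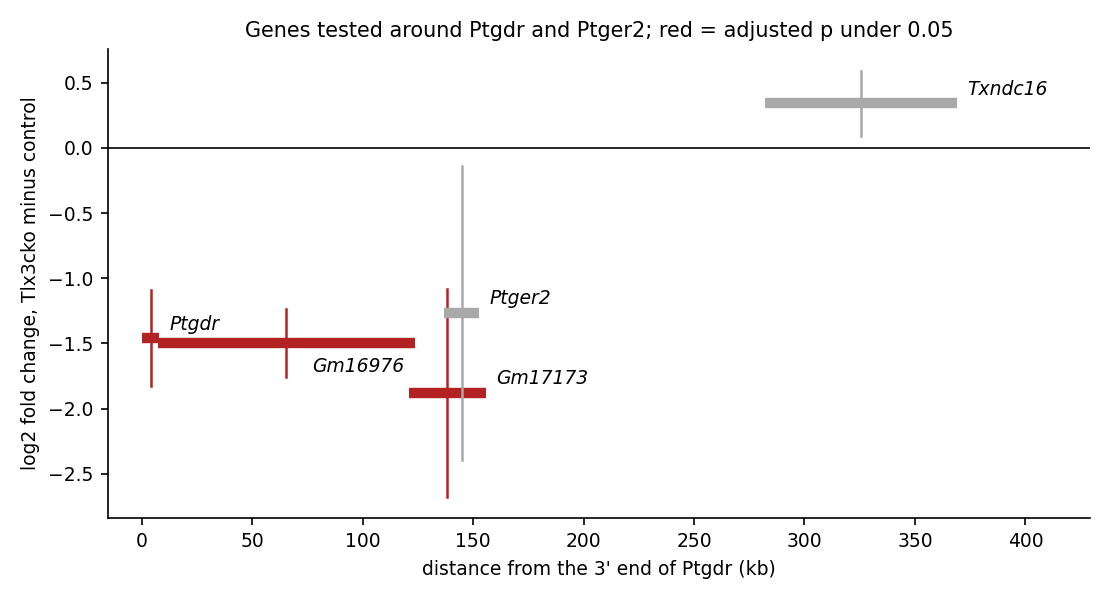
Log2 fold change of Tlx3cko minus control (vertical axis) of the 5 genes tested from Ptgdr to the next gene beyond Ptger2, against the distance in kb from the 3′ end of Ptgdr (horizontal axis), with thick bars for the extent of each gene and thin lines for the 95% interval; red marks an adjusted p under 0.05. The 4 genes from Ptgdr to Ptger2 lie between -1.26 and -1.88, and Txndc16 lies at 0.34.

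The genes whose pattern over the 6 libraries was most like that of the 3 members that passed were found by Pearson r of log2 normalized values among 13372 genes that averaged 50 normalized counts or more. For Ptgdr they were Slc6a9 (r = 0.997), a glycine transporter gene, Rgs4 (r = 0.994), a regulator of G protein signalling, and Gfra2 (r = 0.992), the neurturin receptor gene. For Ptger3 they were Stat5b (r = 0.997), Cav2 (r = 0.996) and Pno1 (r = 0.996), and for Ptger1 they were Pelo (r = 0.991), St3gal5 (r = 0.989) and Gm43597 (r = 0.985). An r over 0.95 was reached by 182 genes with Ptgdr, 164 with Ptger3 and 43 with Ptger1. The 6 points fall into 2 genotypes, so that genes that differ between the groups can reach a high r, and the values are a description with no test. Of the genes named, Slc6a9, Pno1, Pelo, St3gal5 and Gm43597 did not themselves pass the test by genotype (edgeR adjusted p from 0.0886 to 0.661).

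Upstream and downstream of the 10 genes the change was uneven. Genes that release arachidonic acid gave 0 calls among the 9 tested of 14 (median log2 fold change -0.18), and Mgll and Pla2g6, its most abundant members, had log2 fold changes of -0.18 and -0.23. The largest difference of this list was in the phospholipase gene Pla2g4e, with 13, 14 and 43 counts over the controls and 231, 89 and 10 over the Tlx3cko libraries (replicates 1, 2 and 3 in turn), where Tlx3cko replicate 3 was below all controls (edgeR adjusted p = 0.0904). The 10 terminal prostanoid synthase genes gave 0 calls (median -0.04), and so did the 6 genes of prostanoid transport and breakdown (median 0.08). Ptgds, which makes the prostaglandin D that binds the product of Ptgdr, had 410, 208 and 143 counts over the controls and 301, 43 and 54 over the Tlx3cko libraries (replicates 1, 2 and 3 in turn), a spread within each group so wide that the groups overlapped. Its log2 fold change was -0.90 (edgeR adjusted p = 0.54) and turned to 0.25 with sex as a term (edgeR adjusted p = 0.963). The haematopoietic prostaglandin D synthase gene Hpgds had between 4 and 14 counts per library.

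Among 6 genes for other eicosanoid receptors, 4 were tested and 1 was lower. This was Cysltr2, a receptor gene for cysteinyl leukotrienes, with 123, 135 and 342 counts over control replicates 1, 2 and 3 and 22, 19 and 3 over the Tlx3cko replicates (log2 fold change -3.50, SE 0.47, edgeR adjusted p = 0.000691). Ptgdr2, the gene for the other prostaglandin D receptor, had between 7 and 22 counts per library with overlapping groups (log2 fold change -0.44, edgeR adjusted p = 0.781). In the lipoxygenase branch, which makes leukotrienes from the same arachidonic acid, 1 of 8 genes tested was lower. It was Alox5, with 40, 26 and 20 counts over the controls and 4, 4 and 9 over the Tlx3cko libraries in the same order (log2 fold change -2.20, SE 0.55, edgeR adjusted p = 0.0402), but it failed to pass in 5 of the 6 fits with 1 library left out, by limma-voom (adjusted p = 0.112) and with sex as a term, where the log2 fold change was -1.39 (edgeR adjusted p = 0.516).

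Of the 26 genes that couple prostanoid receptors to the cell, such as G protein, adenylyl cyclase and protein kinase A genes, 2 were lower and 1 was higher (median -0.04). Plcb1 rose from 363.5 to 816.2 normalized counts on average (log2 fold change 1.17), Plcb3 fell from 13010 to 8129 (log2 fold change -0.68), and Prkar2b, a regulatory subunit of protein kinase A, fell from 4200 to 3209 (log2 fold change -0.39). The first 2 encode phospholipase C isoforms, on which Gq-coupled receptors act. Of the 12 channel genes whose products prostanoids are known to modulate, 5 were higher and 2 were lower (median 0.13). The heat and capsaicin channel gene Trpv1 rose from 2237 to 5168 normalized counts (log2 fold change 1.21), the acid-sensing channel gene Asic3 by 0.78 and the sodium channel gene Scn10a by 0.43 on the log2 scale. The ATP receptor channel gene P2rx3 fell by 0.99 and the sodium channel gene Scn11a by 0.79. Scn10a encodes Nav1.8, whose promoter drives the Cre in Tlx3cko mice, and the part of the transgene in its counts was not tested. The edgeR adjusted p-values of the 8 genes named here lay between 1.37e-05 and 0.0204, and Prkar2b lost its call in 3 of the 6 fits with 1 library left out.

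**Figure D5:**
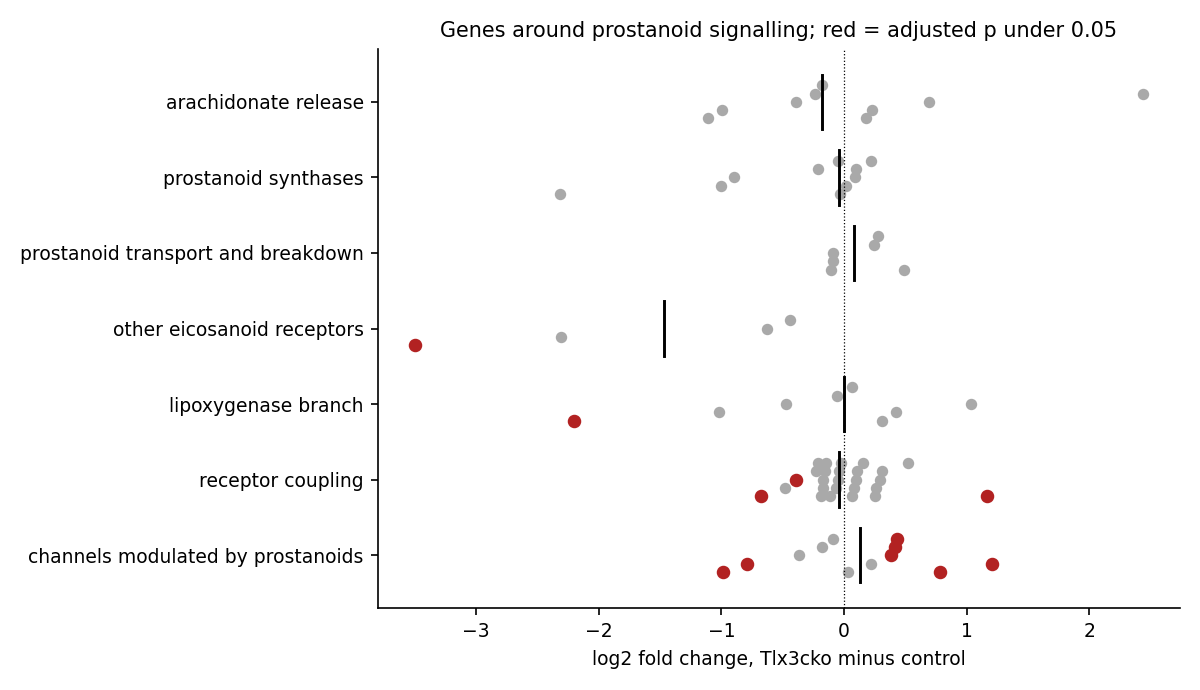
Log2 fold change of Tlx3cko minus control (horizontal axis) of each gene tested in 7 lists around prostanoid signalling, with a point for each gene, a black bar for the median of the list, and red for an adjusted p under 0.05. The release, synthase and transport lists hold 0 red points, and the channel list holds 7, of which 5 lie right of 0.

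Markers of DRG cell types moved with genotype beside these genes. All 7 markers of NP1 neurons, a class of nonpeptidergic nociceptors marked by Mrgprd, were lower. Their summed level was between 17840 and 22970 normalized counts in control and between 8482 and 9381 in Tlx3cko libraries. Gfra2, listed above as alike in pattern to Ptgdr, is among them and is also on the TH neuron list. Of the TH neuron markers, 6 of 7 were lower (11400 to 14770 in control, 8020 to 9113 in Tlx3cko). The largest part of the TH sum was Piezo2, the marker that did not pass (6861 and 5955 on average, edgeR adjusted p = 0.233). The other TH markers stood between 13.3% (Th) and 65.6% (Zfp521) of their control means. Of the NP3 neuron markers, 7 of 8 were lower (7486 to 8912 in control, 4951 to 5263 in Tlx3cko). Most of the NP3 sum was Jak1, which averaged 5960 normalized counts in control and 4578 in Tlx3cko libraries, 76.8% of control. The other NP3 markers stood between 0.88% (Nppb) and 66.1% (Nts) of their control means, so that the sum understates their change. Lower too were 3 of 5 NP2 neuron markers (1025 to 1166 in control, 541.9 to 720.9 in Tlx3cko). The NP2 marker Mrgprx1 went the other way, from 226.6 to 433.6 normalized counts on average, and did not pass (edgeR adjusted p = 0.0798). In the NP2 sum it made up between 374.0 and 494.7 normalized counts of the Tlx3cko libraries. Peptidergic neuron markers gave 3 of 8 higher (25660 to 26900 in control, 40830 to 44770 in Tlx3cko), and myelinated neuron markers 4 of 8 (212700 to 213800 and 253500 to 299000). Most of the myelinated sum was Nefm, which averaged 181300 normalized counts in control and 240000 in Tlx3cko libraries. Pan-neuronal markers summed to between 166100 and 178000 in control and between 168400 and 183100 in Tlx3cko libraries, with 1 of 8 lower. How much of the lower Ptgdr and Ptger3 or the higher Ptger1 goes with these classes was not tested.

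Prostanoid receptors and cyclooxygenases are also made by immune cells, platelets, vessels and glia. Mast cell markers were low, between 89.3 and 158.6 normalized counts in sum in control and between 53.1 and 65.5 in Tlx3cko libraries, with 1 of 6 lower, Ms4a2, which was at 0 in all 3 Tlx3cko libraries but passed in 1 of the 6 fits with 1 library left out, while Fcer1a was at 0 in the controls. Neutrophil markers had 0 of 7 calls and summed to between 610.2 and 1728 in control and between 132.5 and 1110 in Tlx3cko libraries, and macrophage markers had 0 of 9 calls (919.7 to 1079 and 780.8 to 886.7). Platelet, red cell, Schwann cell and smooth muscle markers gave 0 calls, and satellite glia and endothelium markers 1 higher each. Skeletal muscle markers gave 2 of 7 higher (922.9 to 2940 in control, 2881 to 4426 in Tlx3cko). Of these 2, 1 is Pvalb, which is also on the myelinated neuron list and counted there. Pvalb alone had between 819.2 and 1101 normalized counts in control and between 1285 and 1581 in Tlx3cko libraries. Fibroblast and meningeal markers gave 3 of 6 lower (4326 to 4827 and 3343 to 3704) and spinal cord markers 1 of 4 lower. Their part in the values of the 10 genes was not tested.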

How the data were processed

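DRG total RNA of 3 libraries of each genotype was sequenced as paired reads on the Illumina platform. Per the labels, the authors' processing notes name STAR 2.5.2a and the mm10 build, and the counting program and its use of strand are not given in the sources used here. The authors deposited raw read counts per gene without normalization. Among the table's 47937 rows, 208 hold loci that are not annotated, and of 47729 with an Ensembl identifier 47224 had a symbol. GENCODE M21 (GRCm38) supplied gene names and coordinates, and RefSeq supplied the upstream sequences on GRCm38.p6.

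TMM scaling and the quasi-likelihood test of edgeR 4.0.16 (R 4.3.3) were applied to the 20006 genes whose 6 libraries summed to 10 counts or more, with genotype as the term. The threshold was a Benjamini-Hochberg adjusted p under 0.05. Alternatives used limma 3.58.1 and DESeq2 1.42.0. The standard error was the size of the log2 fold change over the square root of F, and 95% intervals came from the t distribution. Library totals ranged from 11458299 to 18775628. Replicates differed by more than sampling noise (chi-square per degree of freedom from 4.32 to 10.1). The labels do not say whether a library is 1 mouse, and p-values measure only the spread between these libraries. The 10 genes are named in full. Genes of 7 pathway lists are named where they passed, up to 6 per list by size, beside a few with a role next to a member, and some genes covered by this rule are left out here. The 19 marker lists are given as counts and summed levels. The 10 genes and the lists were chosen with earlier results of these data known. The script was tested on simulated counts. Alternatives covered other scalings, filters, thresholds and tools, the replicate number as a block, sex, each library left out in turn and, chosen after seeing the data, genes summed with an overlapping gene on the other strand.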

Additional observations from a re-analysis of the deposited data

How the results depend on the processing

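Ptgdr passed the threshold as lower under every alternative run, and Ptger3 under every one except without Tlx3cko replicate 2 and where a 2-fold change was also required. Genes past the threshold numbered 851, beside 1529 with no filter on low counts, 418 at an adjusted p under 0.01, 315 with at least a 2-fold change, 487 with sex as a term, and 488 to 938 with 1 library left out. Members lower numbered 2, beside 1 with at least a 2-fold change and 1 to 2 with 1 library left out. Ptger2 passed only when its counts were summed with those of Gm17173. Members higher numbered 1 (Ptger1), beside 0 at an adjusted p under 0.01, with a 2-fold change or with sex as a term, and 0 to 1 with 1 library left out. Members that did not pass changed sign under some settings. Ptger4 was at 0.091 with sex as a term and against the male control library alone, and at -0.078 to 0.041 with 1 library left out. Ptgfr was at -0.12 with either sex setting and at -0.02 to 0.16 with 1 library left out. Ptgs1 was at -0.16 by limma-voom, -0.03 with the replicate block, -0.29 with either sex setting and -0.48 to 0.36 with 1 library left out, and Ptgs2, fitted on too few counts for a fold to be read, was at -0.13 to 0.96 with 1 library left out and at 4.56 and 4.59 with the sex settings. The causes were not tested.

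Deviations from the group means of same-numbered libraries had r = -0.129, -0.016 and -0.109, beside -0.007 to 0.124 for libraries of unlike number. Same-numbered libraries were thus not more alike by this measure. With 3 libraries per group and unequal sexes, it cannot show whether the libraries were collected in pairs. With the replicate block 770 genes passed, and none of the 10 members gained or lost a call. Alox5 lost its call (adjusted p = 0.0834), and Ptgds, a prostanoid synthase gene, gained one as lower (log2 fold change -1.13, adjusted p = 0.00942). The transporter gene Slco3a1 gained one as higher with sex as a term (0.54, adjusted p = 0.0412). Ptgs2 could not be fitted under the stricter filter or without Tlx3cko replicate 1, and had no adjusted p in DESeq2. Ptger2, Tbxa2r, Ptgs1 and Ptgs2 have few counts, and depth limits what can be said of them.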
